A study of Mus musculus with 5 samples.

Results

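Wnt signalling was described here in 5 mouse embryonic stem cell (ESC) lines through 49 genes: 19 Wnt ligands, 12 receptors, 8 secreted antagonists, 4 genes of the β-catenin destruction complex, β-catenin itself, 3 TCF/LEF factors and 2 target or feedback genes. They were taken by the gene names on a one-colour Agilent array, as the names beginning with Wnt, Fzd, Dkk, Sfrp or Tcf7 and a number, with Axin1, Axin2, Lef1, Ctnnb1, Lrp5, Lrp6, Sp5, Apc, Gsk3b and Nkd1. These 49 of 27962 gene names had 75 of 41174 probes. The study replaced the coding region of ECAT11, a transcript of pluripotent cells, with an EGFP cassette and asked what its loss does to ESCs. Wild-type cells were RF8, labelled male and of 129sv origin, and #620-2, labelled female. The ECAT11 EGFP/EGFP lines were #620-6, labelled female, and #757-1 and #757-2, both labelled male. The lines other than RF8 were of C57BL6/129sv origin and were established from blastocysts of heterozygous parents, whereas RF8 is the line in which the gene was targeted. All were grown on gelatin in medium with serum and LIF. Each line gave 1 array, so the lines are the replicates and a group's spread is that between lines. The 2 lines labelled female also share the number 620, and sex and that shared origin cannot be told apart. No probe reads ECAT11 itself, which is not analysed here.

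A Wnt ligand is a lipid-modified secreted protein that binds a Frizzled receptor together with the co-receptor Lrp5 or Lrp6. Without a ligand, Axin, Apc and Gsk3b hold β-catenin in a complex that marks it for degradation. With a ligand β-catenin accumulates, enters the nucleus and acts through TCF/LEF factors on genes such as Axin2 and Sp5. In mouse ESCs the pathway is known to favour self-renewal, partly by relieving repression by Tcf7l1.

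The probes behind the results are 60 bases long. The first 30 bases, 5′ to 3′ along the transcript, are printed with the position given in the array files (build mm7) for 6 of the 8 members with the smallest p between the lines labelled female and male, and for Porcn, a gene of Wnt secretion on the X chromosome.
Fzd2 probe (chr11:102715340-102715399, + strand): tcacagtctacatgatcaaatacctcatga
Fzd7 probe (chr1:59737506-59737565, + strand): aagggaaggtgaacttcaaagtgattctgg
Wnt3 probe (chr11:103925136-103925195, + strand): attgtgcgactggatccattcatcgaagtc
Wnt6 probe (chr1:75024467-75024532, + strand): attcccctgaaaggccctttgctagttctg
Wnt11 probe (chr7:94885377-94885437, + strand): gaaactgataggattaaaaataacctggca
Lef1 probe (chr3:131060609-131060668, + strand): atctgtttttattagccgattagtgggaat
Porcn probe (chrX:6627247-6627306, - strand): ccccttcaatacccctccttagggtgccaa
The same is shown for 2 of the members with the smallest p between the genotypes, and for Sp5, whose probe has no position in the files.
Fzd3 probe (chr14:60062430-60062490, - strand): tggggtgtgaacacatccaaaccctaagga
Fzd4 probe (chr7:85346032-85346091, + strand): acacacgtaaggtatccagtggatttctct
Sp5 probe: cagagctacagcatggtacgtttctgtaaa
Sp5 is a direct target of β-catenin with TCF/LEF. The motif CTTTGAT, a core TCF/LEF motif, was searched on both strands in the 250 bases before the start sites that RefSeq lists (GRCm38.p6). A window was at hand for 33 of the 49 genes, in 42 windows. The motif stood before Sp5, Wnt5b and Wnt11, in 3 of the 42 windows (7.14%), against 3.21% of 32851 windows of all genes. The window of Sp5, at chr2:70474673-70474922 on the + strand, is given with the motif in capitals, and the match starts 104 bases before the start site.
Sp5 upstream window: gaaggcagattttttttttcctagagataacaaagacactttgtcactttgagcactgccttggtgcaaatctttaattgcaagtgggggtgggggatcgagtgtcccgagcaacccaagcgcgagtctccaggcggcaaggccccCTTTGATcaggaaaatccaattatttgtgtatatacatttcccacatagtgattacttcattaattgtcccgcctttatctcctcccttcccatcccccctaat
A match describes letters in the window and not a bound site. No annotation of build mm7 was used here, so exons and introns are not given for the probes.

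Values are log2 of the background-corrected signal over the 75th percentile of the array, so 0 is the 75th percentile itself. Probe strength differs, so values of different genes are not set against each other. Where a gene had several probes, the brightest was taken as its main probe. Of the 49 genes, 33 were well above background in all 5 lines, 10 in some and 6 in none. All 12 receptors were detected in all lines, as were the destruction complex, β-catenin, the TCF/LEF factors and the targets. Among the 19 ligands 7 were detected in all lines, 8 in some and 4 in none. Among the 8 antagonists 4 were detected in all lines, 2 in some and 2 in none. The arrays lay on 2 slides. Slide 1 held RF8, #620-2 and #620-6, and slide 2 held #757-1 and #757-2. On slide 1 between 58 and 61 of the 75 member probes were well above background, against 50 and 47 on slide 2. The share over all 41174 probes had the same step, from 64.0 to 65.9% on slide 1 to 53.5 and 51.6% on slide 2. Slide 2 held the #757 lines alone, so for this step the slide and these lines cannot be told apart. The detection limit, taken as the dimmest signal called well above background, was between -6.22 and -5.90 on slide 1, and -4.49 and -4.22 on slide 2.

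**Figure D1:**
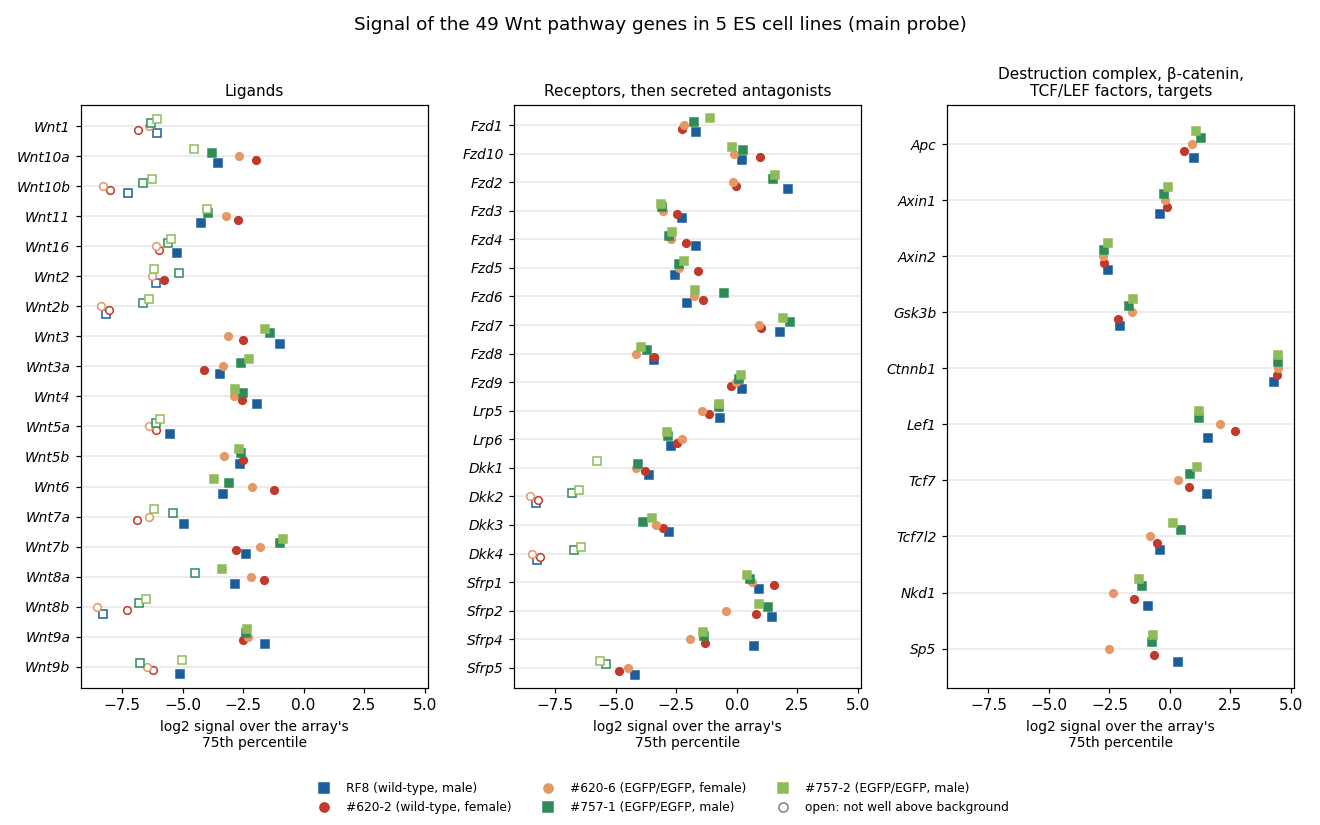
Log2 signal over the array's 75th percentile (horizontal axis) of the main probe of each of the 49 genes, 1 point per line. Squares are lines labelled male and circles lines labelled female, and open points were not well above background. The points of Ctnnb1 span 0.17, those of Sp5 2.85.

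The 3 smallest ranges among the 49 main probes belonged to core genes of the pathway. Ctnnb1, which encodes β-catenin, read 4.31 in RF8, 4.41 in #620-2, 4.45 in #620-6, 4.49 in #757-1 and 4.49 in #757-2, a range of 0.17. Axin2, at once a member of the destruction complex and a target that reports pathway output, read -2.55 in RF8, -2.73 in #620-2, -2.75 in #620-6, -2.73 in #757-1 and -2.54 in #757-2, a range of 0.21. Axin1, its constitutive relative, read -0.40 in RF8, -0.12 in #620-2, -0.19 in #620-6, -0.23 in #757-1 and -0.07 in #757-2. None of these 3 genes differed by 2-fold between any of the lines. Ctnnb1 and Apc were printed in 10 spots per array, whose log2 values had an SD of 0.0530 to 0.113 and of 0.0386 to 0.0524. Wnt1, also in 10 spots but not well above background, had spot SDs of 0.316 to 0.672.

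Apc, the scaffold of the complex, read 1.00 in RF8, 0.60 in #620-2, 0.90 in #620-6, 1.28 in #757-1 and 1.1 in #757-2. Both lines labelled female lay lowest, within 0.68 of the highest. The 3 other Apc probes detected in all lines read -0.34, 0.23 and -3.89 in RF8, and the first 2 of them were again lowest in the lines labelled female while the last was highest there. Apc thus had no single direction over its probes.

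The targets varied more. Sp5 read 0.35 in RF8, -0.68 in #620-2, -2.51 in #620-6, -0.74 in #757-1 and -0.69 in #757-2. RF8 was highest and #620-6 lowest, 7.22-fold apart, and the other 3 lines lay close together between them. Nkd1, a feedback inhibitor induced by Wnt signalling, read -0.90 in RF8, -1.49 in #620-2, -2.36 in #620-6, -1.16 in #757-1 and -1.26 in #757-2. Its highest and lowest lines were the same as for Sp5. Axin2 was also lowest in #620-6, but within a range of only 0.21, and #757-2 and RF8 were nearly level as its highest lines. Neither Sp5 nor Nkd1 was called between the genotypes (limma, adjusted p = 0.829 and 0.924). For Sp5 both wild-type lines lay above all ECAT11 EGFP/EGFP lines, though #620-2 at -0.68 barely exceeded #757-2 at -0.69. Such groups without overlap were found for 23.5% of all probes. For Nkd1 the genotypes overlapped.

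The pattern of Sp5 over the 5 lines was most like those of Ccdc68, Inpp5f, Hpn, 4933430I17Rik and Adamts15, with Pearson r between 0.9965 and 0.9994 among 14098 genes compared. For Axin2 the most alike were Epx, Eppb9, Azi1, Cntrob and Hrc, with r between 0.9892 and 0.997. With 5 points per gene that share arrays and slides, and so many genes, r values this high are a description only.

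The TCF/LEF factors went different ways. Lef1 read 1.56 in RF8, 1.20 in #757-1 and 1.20 in #757-2, against 2.70 in #620-2 and 2.08 in #620-6. Both lines labelled female lay above all lines labelled male, and the second detected Lef1 probe had the same order of groups. Tcf7 read 1.51 in RF8, 0.82 in #757-1 and 1.11 in #757-2, against 0.77 in #620-2 and 0.34 in #620-6, with the lines labelled female lowest, but the groups overlapped in its second probe, also detected in all lines, where #757-1 at -0.91 lay below #620-2 at -0.87. Tcf7l2 read -0.40 in RF8, 0.44 in #757-1 and 0.12 in #757-2, against -0.54 in #620-2 and -0.83 in #620-6, again with the lines labelled female lowest. Its dimmer probes that passed the filter were not detected in all lines, and there the groups overlapped. In the brighter of them #620-6 at -4.70 lay above RF8 at -4.84, and in the dimmer #620-2 at -5.19 lay above RF8 at -5.57. Tcf7l1, the repressor of this family in ESCs, is listed under its older name Tcf3 and was therefore not among the 49. It read 4.01 in RF8, 4.0 in #620-2, 4.35 in #620-6, 4.47 in #757-1 and 4.35 in #757-2, with a range of 0.47. The ECAT11 EGFP/EGFP lines lay above the wild-type lines by 0.39 (limma, adjusted p = 0.647), and by 0.58 in its second probe (adjusted p = 0.576), without overlap in either.

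Between the genotypes no Wnt pathway probe was called. To be called, a probe had to differ more than 2-fold with an adjusted p under 0.05. This was so for 0 of the 65 member probes that passed the filter on dim probes, against 1 of 28972 over the array (0.00345%). The smallest adjusted p of a member was 0.385. At an unadjusted p under 0.05 there were 8 member probes by limma, 2 higher and 6 lower in ECAT11 EGFP/EGFP, where 7.60% of all probes passed, 4.07% higher and 3.53% lower. The methods' t-test called 0 members after Benjamini-Hochberg adjustment, and 7 passed at an unadjusted p under 0.05. The share of all probes at that threshold was not taken for the t-test, so these 7 have no background beside them. The groups did not overlap for 19 of 65 member probes, against 23.5% of all probes. The median log2 difference, ECAT11 EGFP/EGFP minus wild-type, was -0.26 over the 65 probes, 22 higher and 43 lower, against -0.019 over all probes. The 10 probes that failed the filter hold the 5 genes without a probe that passed, Wnt10b, Wnt2b, Wnt8b, Dkk2 and Dkk4. With 2 lines against 3 an exact permutation test cannot go below 0.1.

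The 7 genes with the smallest p between genotypes included 3 Frizzled receptors, 2 antagonists, 1 ligand and 1 kinase. None passed the adjusted threshold. Fzd3, a receptor known from axon guidance, read -2.26 in RF8 and -2.48 in #620-2, against -3.06 in #620-6, -3.08 in #757-1 and -3.15 in #757-2. The difference was -0.73 ± 0.154 (SE, adjusted p = 0.442). The other Fzd3 probe had -1.53 ± 0.28 (SE, adjusted p = 0.385), but was not well above background on slide 2, and a probe listed under a clone name that RefSeq assigns to Fzd3 had -0.20, with overlapping groups.

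Fzd4, a receptor for Norrin as well as Wnts, read -1.67 in RF8 and -2.09 in #620-2, against -2.72 in #620-6, -2.82 in #757-1 and -2.69 in #757-2. All 3 ECAT11 EGFP/EGFP lines lay below both wild-type lines, with a difference of -0.86 ± 0.191 (SE, adjusted p = 0.46). Fzd8, the third receptor, read -3.41 in RF8 and -3.43 in #620-2, against -4.17 in #620-6, -3.72 in #757-1 and -3.97 in #757-2, a difference of -0.53 ± 0.191 (SE, adjusted p = 0.635).

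Wnt7b, a ligand that mostly acts through β-catenin, read -2.38 in RF8 and -2.81 in #620-2, against -1.80 in #620-6, -0.99 in #757-1 and -0.88 in #757-2. This was the widest difference among the 7 genes, 1.37 ± 0.357 (SE, adjusted p = 0.495), and both lines on slide 2 were higher than #620-6. With slide as a block, which leaves the comparison within slide 1, the difference was 0.79 (adjusted p = 0.559). Gsk3b, the kinase that marks β-catenin for degradation, read -2.06 in RF8 and -2.13 in #620-2, against -1.58 in #620-6, -1.71 in #757-1 and -1.52 in #757-2, a difference of 0.49 ± 0.15 (SE, adjusted p = 0.571). Its other probe had 0.31 with overlapping groups.

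Of the antagonists, Dkk3, a divergent relative of the Dickkopf inhibitors of Lrp5 and Lrp6, read -2.81 in RF8 and -3.06 in #620-2, against -3.33 in #620-6, -3.86 in #757-1 and -3.51 in #757-2, a difference of -0.63 ± 0.224 (SE, adjusted p = 0.628). Sfrp1, which binds Wnts in the extracellular space, read 0.93 in RF8 and 1.52 in #620-2, against 0.64 in #620-6, 0.53 in #757-1 and 0.44 in #757-2, a difference of -0.69 ± 0.232 (SE, adjusted p = 0.604). The dimmer Sfrp1 probe went the other way, from -5.29 in RF8 and -3.55 in #620-2 to -3.41 in #620-6, -3.1 in #757-1 and -3.01 in #757-2, and the mean of both probes differed by 0.28. The direction for Sfrp1 therefore depended on the probe. Within slide 1 the differences of the other genes were -0.69 for Fzd3, -0.84 for Fzd4, -0.74 for Fzd8, 0.51 for Gsk3b, -0.39 for Dkk3 and -0.58 for Sfrp1, with adjusted p between 0.502 and 0.76.

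Since the groups did not overlap in any of the 7 genes, the sign within each sex label was fixed, and only the sizes are given. For Wnt7b the differences were 1.01 in the lines labelled female, and 1.39 and 1.5 in those labelled male. For Fzd4 they were -0.62, and -1.15 and -1.03.

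**Figure D2:**
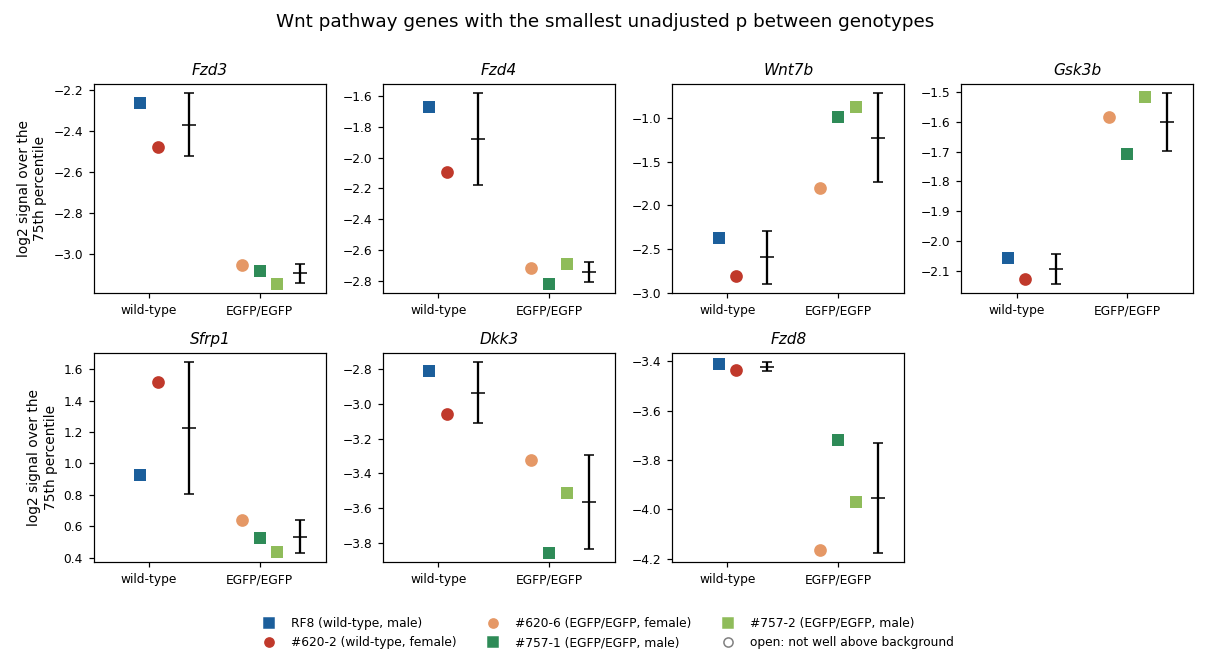
Log2 signal over the 75th percentile (vertical axis, a scale of its own in each panel) of the 7 Wnt pathway genes with the smallest unadjusted p between genotypes, 1 point per line, with the group mean and SD in black. The 2 wild-type lines and the 3 ECAT11 EGFP/EGFP lines do not overlap in any panel, and no gene passed the adjusted threshold.

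Between the sex labels the differences were larger, and again no member was called. In the lines labelled female and male 0 of 65 member probes passed, against 99 of 28971 probes (0.342%), and the smallest adjusted p was 0.0748, for Fzd2. That background count was 88 without RF8 and 0 without any of the other lines. At an unadjusted p under 0.05 limma gave 19 member probes, 8 higher and 11 lower in the lines labelled female, where 18.0% of all probes passed, 9.62% higher and 8.39% lower. The groups did not overlap for 30 of 65 member probes, against 39.0% of all probes. The median log2 difference, female minus male label, was -0.13 over the members and -0.016 over all probes. The summed log2 signal of primitive endoderm markers also moved with the label, with 1.04 and 0.85 in the lines labelled female against -0.12 to 0.06 in the others. Gata6, Sox17, Sox7 and Pdgfra were higher in the lines labelled female, whereas Gata4, Foxa2, Dab2 and Lama1 overlapped between the labels. The summed signals of neural and of mesendoderm markers separated by label as well, though not every marker followed its sum. Of the mesendoderm markers, T was lower in the lines labelled female and Eomes higher. The part of these cell types in the results was not tested. Over the alternatives the adjusted p of Fzd2 ranged from 0.0332 to 0.377. It passed with another background correction (0.0344) and with a trend in the variance (0.0332), was 0.207 without #620-2 and 0.265 without #620-6, and as the mean of its 2 probes the difference was -0.85 (0.377).

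Among the receptors, Fzd2, which takes both β-catenin and calcium routes, read 2.10 in RF8, 1.49 in #757-1 and 1.57 in #757-2, against -0.03 in #620-2 and -0.15 in #620-6. The lines labelled female lay close together and 3.51-fold below the mean of the others, -1.81 ± 0.234 (SE, adjusted p = 0.0748). A second, dim Fzd2 probe was well above background only in #620-2 and had a difference of 0.10. Fzd7, the Frizzled most associated with pluripotent cells, read 1.80 in RF8, 2.20 in #757-1 and 1.90 in #757-2, against 1.00 in #620-2 and 0.94 in #620-6, a difference of -1.0 ± 0.173 (SE, adjusted p = 0.103). Its other probe, detected in all lines, read -2.84 in RF8, -3.20 in #757-1 and -3.34 in #757-2, against -4.59 in #620-2 and -4.94 in #620-6, a difference of -1.64 ± 0.22 (SE, adjusted p = 0.0801). The co-receptor Lrp5 read -0.69 in RF8, -0.75 in #757-1 and -0.74 in #757-2, against -1.14 in #620-2 and -1.45 in #620-6, a difference of -0.57 ± 0.152 (SE, adjusted p = 0.179). Lrp6, the other co-receptor, went the opposite way, -2.70 in RF8, -2.85 in #757-1 and -2.90 in #757-2, against -2.48 in #620-2 and -2.26 in #620-6, with an adjusted p of 0.237.

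The ligands split. Wnt3, a ligand of the primitive streak that signals through β-catenin, read -0.99 in RF8, -1.39 in #757-1 and -1.58 in #757-2, against -2.53 in #620-2 and -3.12 in #620-6. The difference was -1.50 ± 0.279 (SE, adjusted p = 0.112), and the other Wnt3 probe had -1.39 ± 0.419 (SE, adjusted p = 0.209). Wnt6, Wnt10a and Wnt11 were higher there. Wnt6, expressed by extraembryonic endoderm among other tissues, read -3.33 in RF8, -3.09 in #757-1 and -3.69 in #757-2, against -1.23 in #620-2 and -2.15 in #620-6, a difference of 1.68 ± 0.352 (SE, adjusted p = 0.133), and 1.95 ± 0.345 (SE, adjusted p = 0.106) by its other probe.

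Wnt10a read -3.55 in RF8, -3.78 in #757-1 and -4.54 in #757-2, against -1.98 in #620-2 and -2.67 in #620-6, where #757-2 was not well above background, a difference of 1.63 ± 0.391 (SE, adjusted p = 0.156). The probes of Wnt6 and Wnt10a lie 19.2 kb apart on chromosome 1 and both genes were highest in #620-2 and next in #620-6. The neighbours Wnt3 and Wnt9b, 88.5 kb apart on chromosome 11, could not be set side by side, since Wnt9b was detected only in RF8. Wnt3a and Wnt9a, 85.0 kb apart on the same chromosome, had different orders. Wnt3a, the ligand used to support ESC self-renewal, read -3.47 in RF8, -2.58 in #757-1 and -2.24 in #757-2, against -4.13 in #620-2 and -3.35 in #620-6. Wnt9a read -1.60 in RF8, -2.39 in #757-1 and -2.32 in #757-2, against -2.51 in #620-2 and -2.29 in #620-6, highest in RF8.

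Wnt11, a ligand of cell movement that mostly acts without β-catenin, read -4.23 in RF8, -3.95 in #757-1 and -3.98 in #757-2, against -2.71 in #620-2 and -3.20 in #620-6, with #757-2 not well above background and a difference of 1.1 ± 0.21 (SE, adjusted p = 0.116). Wnt8a, detected in all lines but #757-1, read -2.83 in RF8, -4.48 in #757-1 and -3.40 in #757-2, against -1.63 in #620-2 and -2.18 in #620-6. It shared the order of groups with Wnt6 and Wnt10a (adjusted p = 0.229). The difference for Lef1 was 1.07 ± 0.254 (SE, adjusted p = 0.154), and 1.13 ± 0.268 (SE, adjusted p = 0.154) by its other detected probe.

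Within slide 1, where #620-2 and #620-6 were compared with RF8 alone, the sign was fixed because the groups did not overlap, and the sizes were -2.19 for Fzd2, -0.83 for Fzd7, -1.84 for Wnt3, -0.61 for Lrp5, 1.64 for Wnt6, 1.23 for Wnt10a, 1.27 for Wnt11 and 0.83 for Lef1, with adjusted p between 0.0571 and 0.334.

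**Figure D3:**
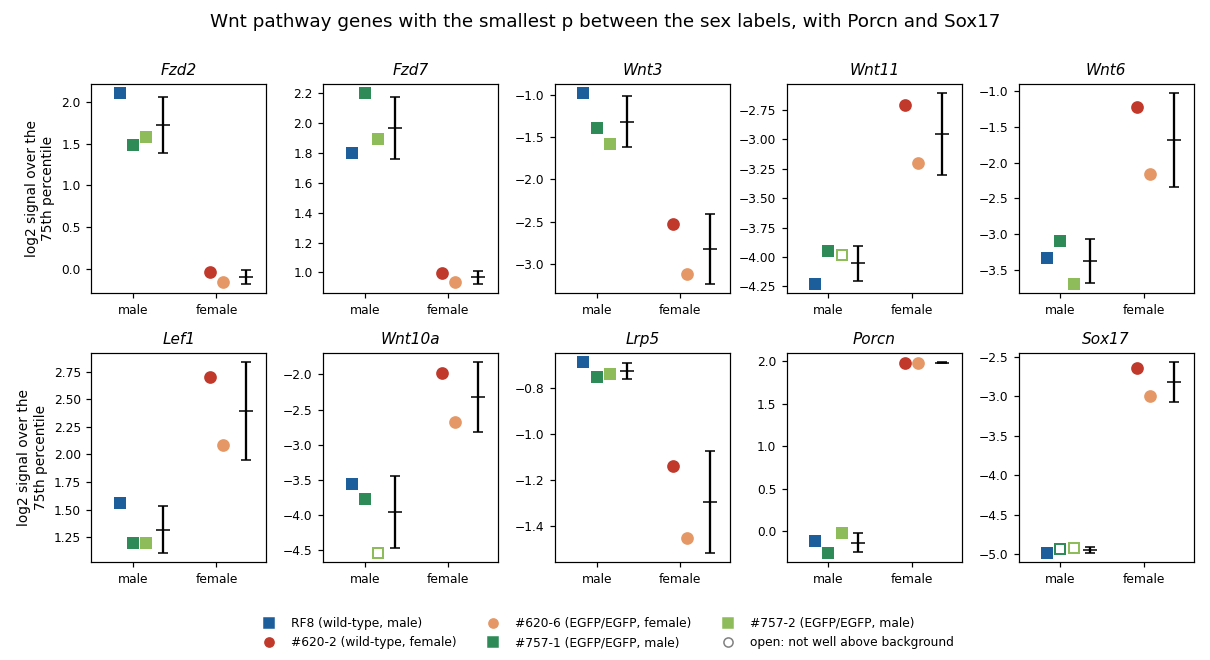
Log2 signal over the 75th percentile (vertical axis, a scale of its own in each panel) in the lines labelled male and female, for the 8 members with the smallest unadjusted p and for Porcn and Sox17 from the list of other pathway genes. Points are lines, open where not well above background, and the group mean and SD are in black; the groups do not overlap in any panel, and Porcn and Sox17 alone passed the adjusted threshold.

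Several detected members belonged to neither set. Among ligands, Wnt4 read -1.93 in RF8, -2.54 in #620-2, -2.86 in #620-6, -2.50 in #757-1 and -2.84 in #757-2. Wnt5b, a ligand that mostly acts without β-catenin, read -2.65 in RF8, -2.53 in #620-2, -3.29 in #620-6, -2.60 in #757-1 and -2.66 in #757-2, lowest in #620-6. Among receptors, Fzd9 varied least, 0.21 in RF8, -0.23 in #620-2, -0.03 in #620-6, 0.08 in #757-1 and 0.17 in #757-2. Fzd6, a receptor of the planar polarity branch, was highest in #757-1, -2.06 in RF8, -1.40 in #620-2, -1.77 in #620-6, -0.54 in #757-1 and -1.72 in #757-2. Fzd1 read -1.69 in RF8, -1.76 in #757-1 and -1.10 in #757-2, against -2.26 in #620-2 and -2.17 in #620-6, lowest in the lines labelled female (adjusted p = 0.255).

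Fzd5, the receptor needed for yolk sac vessels, read -2.57 in RF8, -1.61 in #620-2, -2.37 in #620-6, -2.41 in #757-1 and -2.18 in #757-2, highest in #620-2. A probe named otherwise on the array, which RefSeq assigns to Fzd5, was also highest there at -1.32, with -2.27 in RF8 and -3.16 to -2.80 in the ECAT11 EGFP/EGFP lines. Fzd10 read 0.22 in RF8, 0.96 in #620-2, -0.13 in #620-6, 0.26 in #757-1 and -0.18 in #757-2, also highest in #620-2.

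Of the remaining antagonists, Sfrp4 set RF8 apart: 0.73 in RF8, -1.30 in #620-2, -1.94 in #620-6, -1.35 in #757-1 and -1.39 in #757-2. RF8 and the lowest line, #620-6, were 6.38-fold apart, and the other 4 lines lay far below RF8. Sfrp2 read 1.46 in RF8, 0.79 in #620-2, -0.46 in #620-6, 1.28 in #757-1 and 0.90 in #757-2, lowest in #620-6. Dkk1, the classical inhibitor of Lrp6, read -3.62 in RF8, -3.78 in #620-2, -4.18 in #620-6, -4.07 in #757-1 and -5.79 in #757-2, where #757-2 was not well above background. RF8 alone is of 129sv origin without C57BL6, so that a value particular to RF8 cannot be told apart from strain.

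Pairs of lines differed widely in how many members were more than 2-fold apart. Between RF8 and #620-2, the 2 wild-type lines, 13 of 56 member probes well above background in both differed by more than 2-fold, 8 higher and 5 lower in #620-2, against 10.3% of all probes. Between RF8 and #757-2, both labelled male but of different genotype and slide, it was 6 of 47, against 5.91%. The lines #620-2 and #620-6 differed in 7 of 57, 6 of them lower in #620-6, against 7.10%. The lines #757-1 and #757-2, which share genotype, sex label and slide, differed in 1 of 46, against 1.82%. The wild-type pair thus differed in more Wnt pathway probes than #620-2 and #620-6, and all probes had the same order. The share was higher still for RF8 and #620-6 (15 of 57), which differ in genotype. It was also higher for #620-2 against #757-1 (13 of 50) and against #757-2 (13 of 47). RF8 and #757-1, again of different genotype, lay lower at 7 of 50. Within ECAT11 EGFP/EGFP, #620-6 differed from #757-1 in 12 of 50 and from #757-2 in 13 of 47. The shares thus did not sort the pairs by genotype. These counts rest on 1 array per line and carry no test.

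**Figure D4:**
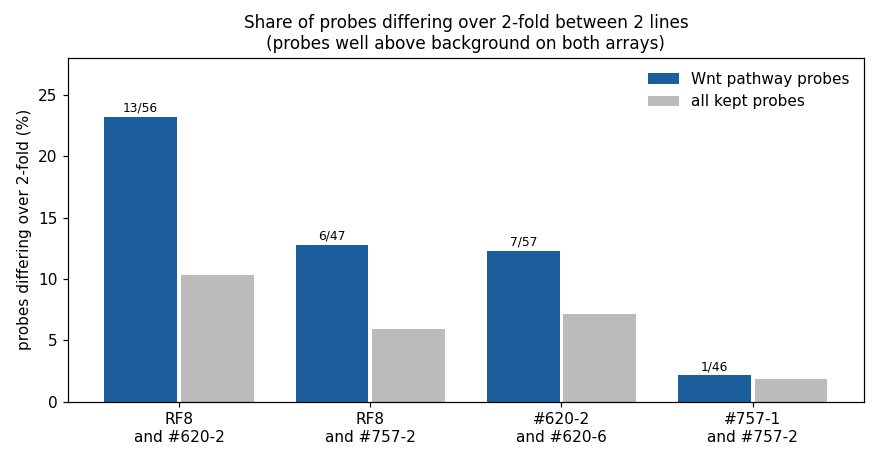
Percent of probes (vertical axis) that differed by more than 2-fold between the lines of each pair, for Wnt pathway probes (blue, with counts) and for all probes (grey). Both sets hold only probes well above background on both arrays of the pair, although the key names the grey set all kept probes. The wild-type pair RF8 and #620-2 stands at 23.2% against 10.3%, and the pair #757-1 and #757-2 at 2.17% against 1.82%.

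Another 84 pathway genes on a list of regulators and known targets were read in the same fits, through 132 probes that passed the filter. Between the genotypes 0 were called, against 0.00345% of all probes. At an unadjusted p under 0.05 (limma) 4 were higher and 8 lower, 9.09% of the 132 against 7.60% of all probes. The median difference was -0.033, against -0.019 over all probes. Tcfap2c, listed as a target and also a trophoblast factor, had the smallest p. It read 1.94 in RF8 and 2.24 in #620-2, against 3.52 in #620-6, 3.62 in #757-1 and 3.81 in #757-2, a difference of 1.56 ± 0.184 (SE, adjusted p = 0.285). Vangl1, of the planar polarity branch, read 1.77 in RF8 and 2.25 in #620-2, against 3.32 in #620-6, 3.05 in #757-1 and 3.24 in #757-2, a difference of 1.19 ± 0.216 (SE, adjusted p = 0.384).

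Between the sex labels 2 of the 132 were called, against 0.342% of all probes. They were Porcn and Sox17, both higher in the lines labelled female. Porcn, the acyltransferase that attaches the lipid every Wnt needs for secretion, read -0.12 in RF8, -0.25 in #757-1 and -0.02 in #757-2, against 1.98 in #620-2 and 1.98 in #620-6. The lines labelled female, with an SD of 0.00335 between them, were 4.32-fold above the mean of the others, 2.11 ± 0.137 (SE, adjusted p = 0.0317). Sox17, an endoderm factor and Wnt target, read -4.99 in RF8, -4.94 in #757-1 and -4.92 in #757-2, against -2.64 in #620-2 and -2.99 in #620-6, with both lines of slide 2 not well above background, a difference of 2.13 ± 0.16 (SE, adjusted p = 0.0364). Both calls were lost without any 1 line (adjusted p between 0.0589 and 0.212 for Porcn and between 0.0713 and 0.191 for Sox17), and with slide as a block they had adjusted p = 0.0645 and 0.0733. With no filter they had 0.093 and 0.101. With normexp background correction the difference for Sox17 was 0.83, under 2-fold (adjusted p = 0.0557). At an unadjusted p under 0.05 (limma), 13 of the 132 probes were higher and 13 lower, 19.7% against 18.0% of all probes.

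Other genes of the list are given as values, none of which passed. Cd44, a hyaluronan receptor, read -1.42 in RF8, -3.06 in #757-1 and -2.53 in #757-2, against 1.48 in #620-2 and 1.65 in #620-6 (adjusted p = 0.0791). Tbx3, a pluripotency factor, read 1.18 in RF8, 2.27 in #757-1 and 2.94 in #757-2, against 4.45 in #620-2 and 4.43 in #620-6 (adjusted p = 0.153). Both were higher in the lines labelled female. Ccnd1, a cyclin, read 1.94 in RF8, 2.01 in #757-1 and 2.05 in #757-2, against 2.73 in #620-2 and 2.50 in #620-6 (adjusted p = 0.15). Nr5a2, an activator of Pou5f1, was lower there, 2.93 in RF8, 3.03 in #757-1 and 3.1 in #757-2, against 2.14 in #620-2 and 2.18 in #620-6 (adjusted p = 0.0888). Lgr4, an R-spondin receptor, was also lower, 2.20 in RF8, 2.38 in #757-1 and 2.24 in #757-2, against 1.74 in #620-2 and 1.47 in #620-6 (adjusted p = 0.15). T, a target of the primitive streak, was not well above background in #620-6 and #757-1. Its -4.75 in #757-1 still lay above its -4.92 in #620-2, which was detected on the slide with the lower limit.

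By detection the ESC label held in every line: 8 of 8 pluripotency markers with a probe, among them Pou5f1, Sox2 and Nanog, were well above background on all arrays. Their levels were not uniform. Zfp42 read 4.01 in #620-6 and 3.87 in #757-2, against 6.56 or more in the other lines, a range of 8.75-fold. Nanog was lowest in RF8 at 2.54 and highest in #620-6 at 4.54, 4.01-fold apart. The remaining markers had ranges of 1.28-fold to 2.45-fold. Of the primitive endoderm markers 8 of 8 were detected in the lines labelled female, 7 in RF8 and 5 in #757-1 and #757-2. These counts depend on the detection limit, which was higher on slide 2. Sox17, on this list too, was detected in RF8 at -4.99 but not in #757-1 at -4.94 or #757-2 at -4.92. Pdgfra was at -1.98 in #620-2 and -1.94 in #620-6 and not well above background elsewhere. Fibroblast markers had summed signals of 4.0 in RF8, 3.34 and 3.26 in #620-2 and #620-6, and 1.39 and 2.28 in #757-1 and #757-2, with 8 to 10 of 10 detected. The sum followed Col1a1 and Col1a2, which were highest in RF8 as Sfrp4 was, whereas Dcn was lowest there and Thy1 and Col3a1 were highest in the lines labelled female. Trophoblast markers had summed signals of 2.73 and 2.59 in the wild-type lines and 3.89 to 4.04 in the ECAT11 EGFP/EGFP lines, with 4 to 6 of 6 detected. This sum followed Tcfap2c and Gata3, whereas Cdx2 was highest in the wild-type lines and Krt7 and Hand1 overlapped between the genotypes. Neural markers summed to 2.53 and 2.82 in the lines labelled female and 3.07 to 3.52 in the others, with 4 or 5 of 5 detected. Pax6 and Nes were lower in the lines labelled female, whereas Sox1, Neurod1 and Tubb3 overlapped between the labels. Mesendoderm markers summed to -0.97 and -0.54 in the lines labelled female and -1.45 to -1.16 in the others, with 3 to 5 of 6 detected and Mixl1 in none. Eomes was higher in the lines labelled female and T lower, whereas Gsc, Mesp1 and Evx1 overlapped between the labels. The part of any other cell type in the Wnt pathway values was not tested, and a change in the share of such cells and one in RNA per cell cannot be told apart.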

How the data were processed

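Cy3-labelled RNA of each of the 5 ESC lines was read on an Agilent one-colour array. The files deposited by the authors are Feature Extraction 9.5.3.1 output, with an intensity corrected for background and quality flags for every spot. A second file deposited by the authors holds log2 values from which a constant per probe had been taken, and served as an alternative. Its scale was that of the intensities (slope 1, Pearson r 0.999938 over 20617 probes), and its medians per array lay between -0.101 and 0.0772.

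From the intensities, control spots were left out, spots marked as outliers (0.335%) were set missing, and each array was divided by its 75th percentile (687.5 to 794.4). Log2 values of replicate spots were averaged. No spot was saturated. The 28972 probes with at least 1 Present call entered the fits. A probe was Present if positive and significant, well above background, not saturated and no outlier. The number of arrays limits the precision.

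Groups were compared by genotype and by sex label with limma 3.58.1 in R 4.3.3, with Benjamini-Hochberg adjustment over all kept probes, a threshold of 0.05 and of 2-fold. The methods' t-test was also applied. The code was tested on simulated data. Figures were drawn with matplotlib 3.10.9.

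Values in every line were printed for the core genes, for each Wnt, Fzd, Dkk and Sfrp gene detected on all arrays and for the 8 genes with the widest range. Fold changes were printed for up to 8 genes with the smallest p below 0.05 in each comparison. The members, lists and rules were chosen with earlier results of these data known. Of the 75 member probes, 64 were named through the accession in the RefSeq table (assembly GRCm38.p6) and 11 through the symbol. Under updated names 5 further probes join, 2 of Tcf7l1 and 1 each of Fzd5, Lrp6 and Fzd3. The second gene list had no probe for Dact3 and the marker lists none for Fgf4.

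Alternatives were normexp correction with offset 50, quantile normalization, the deposited table, other filters, marked spots kept, slide or the other label in the fit, a variance trend, no fold threshold, the mean of a gene's probes, and each line left out.

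The sequence of 1 further probe is not reported here.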

Additional observations from a re-analysis of the deposited data

Results flagged for a closer look

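Of the 15 genes printed with a fold change, the 7 of the genotype comparison could not show opposite signs, since their groups did not overlap. Among the 8 of the sex label comparison, Fzd7 and Wnt11 had genotype differences of opposite sign in the lines of the 2 sex labels. The share of all probes with such opposite signs was not taken. For Fzd7, #620-6 minus #620-2 was -0.062, whereas #757-1 and #757-2 minus RF8 were 0.40 and 0.096, so the female-label difference was -0.309 relative to the mean of the male-label ones. For Wnt11 the differences were -0.49 in the lines labelled female and 0.28 and 0.25 in those labelled male, -0.756 apart. Whether the differences themselves differ was not tested. Each rests on 1 or 2 lines, and #757-2 was not well above background for Wnt11.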

How the results depend on the processing

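No member was called between the genotypes under any alternative, and the count over all probes, 1, became 0 with normexp correction, quantile normalization, no filter, a slide block, a sex label covariate and the methods' t-test, 2 with the stricter filter, and 0 to 0 when a line was left out. Between the sex labels the count of members, 0, was 1 with normexp correction and 1 with a variance trend, Fzd2 in both, and 0 to 0 when a line was left out. The count over all probes, 99, was 287 with normexp correction, 208 with quantile normalization, 27 with no filter, 149 with slide as a block, 0 with genotype as a covariate, 302 with a variance trend, and 0 to 88 when a line was left out. At an unadjusted p under 0.05 between 4 and 17 member probes passed for genotype and between 13 and 26 for the sex label. The share of all probes at that threshold was not taken for each alternative, so these counts have no background beside them. Of 112 alternative values for the 7 genes of the genotype comparison 111 kept direction and side of the threshold, and Sfrp1 turned to 0.28 as the mean of its kept probes. Of 160 values for the 8 genes of the sex label with Porcn and Sox17 none turned, 17 lost the call (Porcn and Sox17) and 2 gained it (Fzd2). Most of these directions were fixed beforehand, so the counts do not measure robustness. The filters, the variance trend and the fold threshold leave a difference as it was. Since the groups of these genes did not overlap, slide or the other label in the fit, or a line left out, could not turn a sign. The causes were not tested. The median over all probes moved by less than 0.1 with the scaling. Where a wild-type or female-labelled line was left out the lone sample was assumed to vary like the other group. No paired analysis was possible because the labels number no replicates, and slide and sex label were fitted instead. The detection limit was higher on slide 2, and of the 8 ligands detected in some lines 5 were well above background in only 1 line.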
